A study of Homo sapiens with 4 samples.

Results

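Genes of the human metallothionein and zinc response were examined, namely the metallothioneins MT1A, MT1E, MT1F, MT1G, MT1M, MT1X, MT2A and MT3, the zinc-sensing transcription factor MTF1 and the zinc exporter SLC30A1. They were chosen by symbol, not by their values, and are 10 of the 57820 genes in the table, with 33 of its 196520 transcripts. The RNA-seq libraries came from SK-N-SH, an established human neuroblastoma line. In the OE condition (2 libraries) the cells carried a recombinant lentivirus with the long noncoding RNA RP5-998N21.4. Its EF1a promoter is given in the methods of the study. In the vector control condition (2 libraries, genotype wild type) they had received the empty lentivirus. The control titles read WT, and the treatment label, which names the empty vector, was followed here. No label tells whether the libraries of a condition came from separate cultures, so each p-value measures only the spread between these libraries, which may be technical.

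Metallothioneins are small proteins rich in cysteine, and they hold zinc and copper in metal-thiolate clusters. Free zinc binds MTF1, which moves to the nucleus and binds metal response elements upstream of the metallothionein genes and of SLC30A1, so that the cell both stores and exports the excess. Glucocorticoids and oxidants also raise metallothionein RNA, and MT3 is the form known from neurons.

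The members have similar coding sequences. The coding sequence of MT2A, the most abundant metallothionein member here, is given below in the reference build GRCh37 from 3 exons of the gene (chr16:56642496-56643409, + strand, hg19). It is followed by those of MT1X (chr16:56716382-56718108, + strand, hg19) and of MT1XP1, its processed pseudogene on another chromosome (chr1:16567708-16567893, - strand, hg19). In MT2A the capitals mark the cysteine codons, and in MT1X and MT1XP1 they mark the bases that differ between both.
MT2A: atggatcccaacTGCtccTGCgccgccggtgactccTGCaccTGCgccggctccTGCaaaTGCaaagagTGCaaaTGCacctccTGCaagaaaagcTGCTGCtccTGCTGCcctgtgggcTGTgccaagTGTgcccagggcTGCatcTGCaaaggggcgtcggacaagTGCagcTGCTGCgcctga
MT1X: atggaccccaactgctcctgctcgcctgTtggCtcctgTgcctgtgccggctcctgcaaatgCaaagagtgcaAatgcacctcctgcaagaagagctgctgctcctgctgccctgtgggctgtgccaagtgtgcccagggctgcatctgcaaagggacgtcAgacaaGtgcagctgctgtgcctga
MT1XP1: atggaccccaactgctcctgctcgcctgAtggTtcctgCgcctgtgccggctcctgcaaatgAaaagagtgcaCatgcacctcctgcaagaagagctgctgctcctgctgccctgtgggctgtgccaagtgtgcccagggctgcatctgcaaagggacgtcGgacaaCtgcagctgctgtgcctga
MT2A has 20 cysteine codons among 61. The MT1 members and MT2A shared 88.7% to 94.6% of their coding bases over 21 pairs, and MT3 shared 73.4% to 76.3% with the 7 others. MT1X and MT1XP1 differ at 7 of 186 bases (96.2% identity). With MT1X first and positions counted from 1 at the A of the start codon, the differences are T29A, C33T, T39C, C63A, A74C, A162G and G168C. The substitution C63A turns codon 21 into an in-frame stop, so the pseudogene does not encode the whole protein.

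Promoter sequence was matched in RefSeq for 4 members (MT2A, MT1X, SLC30A1 and MTF1), and the 250 bases before the annotated start are shown for 3 of them because metal response elements sit there. Capitals mark each match to TGCACNC or TGCGCNC, the core letters of the metal response element, on either strand (build GRCh38.p14: MT2A chr16:56608334-56608583, + strand, MT1X chr16:56682220-56682469, + strand, SLC30A1 chr1:211579162-211579411, - strand).
MT2A upstream: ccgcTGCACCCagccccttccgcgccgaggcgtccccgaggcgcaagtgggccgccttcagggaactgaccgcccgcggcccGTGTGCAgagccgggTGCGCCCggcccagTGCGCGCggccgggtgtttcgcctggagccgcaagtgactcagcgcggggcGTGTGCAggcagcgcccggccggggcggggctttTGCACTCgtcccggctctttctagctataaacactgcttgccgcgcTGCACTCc
MT1X upstream: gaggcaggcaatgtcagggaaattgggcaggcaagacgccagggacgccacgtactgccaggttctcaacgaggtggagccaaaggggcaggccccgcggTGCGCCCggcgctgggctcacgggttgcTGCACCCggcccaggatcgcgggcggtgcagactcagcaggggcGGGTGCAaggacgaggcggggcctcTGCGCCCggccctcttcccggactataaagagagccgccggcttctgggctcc
SLC30A1 upstream: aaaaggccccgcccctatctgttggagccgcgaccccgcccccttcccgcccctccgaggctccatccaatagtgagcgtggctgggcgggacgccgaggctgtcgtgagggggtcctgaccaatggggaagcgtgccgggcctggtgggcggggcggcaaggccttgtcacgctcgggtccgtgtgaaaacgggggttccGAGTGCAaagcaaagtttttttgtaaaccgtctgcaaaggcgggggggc
MT2A held 7 matches and MT1X held 4. SLC30A1 held 1, on the opposite strand and 49 bases before the start, and MTF1 held 0. Of 35116 RefSeq promoters of this length, 24.8% held at least 1 match, 0.37% held at least 4 and 0.0313% held at least 7. A match describes letters only and is not a measured binding site.

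The vector control libraries held 23785164 and 24098041 counts, and the OE libraries 24601728 and 28307591. Levels are given in CPM, counts per 1e6 counts of a library total corrected by TMM. RP5-998N21.4 itself had 32 and 33 counts in controls, against 2407 and 2808 in OE, and near-identical copies of it may share reads. Differences were tested with edgeR's quasi-likelihood test over 20528 genes, and a gene was called at an adjusted p under 0.01 with an absolute log2 fold change above 0.5. By this rule 0 of the 20528 genes (0%) were called, while 122 (0.594%) had an adjusted p under 0.05, 4269 (20.8%) had an unadjusted p under 0.05 and DESeq2 called 1722 of 24795 (6.94%) at the same thresholds. The median gene differed by 0.18 on the log2 scale between the vector control libraries, by 0.172 between the OE libraries and by 0.265 between condition means. Adrenergic neuroblastoma markers stood higher in OE (7 of 7 tested had both OE libraries above both controls, CHGA and DBH among them, against 27.8% of all genes), and 6 of 8 mesenchymal markers stood lower, against 27.6%. The mesenchymal marker VIM went the other way, at 348 and 350 CPM in controls, against 1250 and 376 CPM in OE. FN1, also mesenchymal, overlapped between conditions. The share of these marker differences in the results below was not tested. TH, a defining adrenergic enzyme, was at 0 in all libraries. Of 7 other-tissue markers in the table, 1 exceeded 1 CPM (CD68, with 240 and 237 counts in controls, against 2 and 126 in OE).

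No member passed the test. Of the 10 members, 5 were abundant enough to be tested (MTF1, SLC30A1, MT2A, MT1X and MT1F), 3 had a handful of counts (MT1A, MT1E and MT1M) and 2 had none (MT1G and MT3). Among the 5 tested, 0 had an unadjusted p under 0.05, against 20.8% of all genes. In 1 of the 5 the conditions did not overlap, against 55.4% of all genes: both OE libraries of MTF1 lay below both controls (27.6% of all genes), and in 0 did both lie above (27.8%). No tested member was more than 4-fold apart between libraries of 1 condition, against 6.82% of all genes. The median log2 fold change of the 5 was -0.11 and that of all genes tested 0.01.

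**Figure D1:**
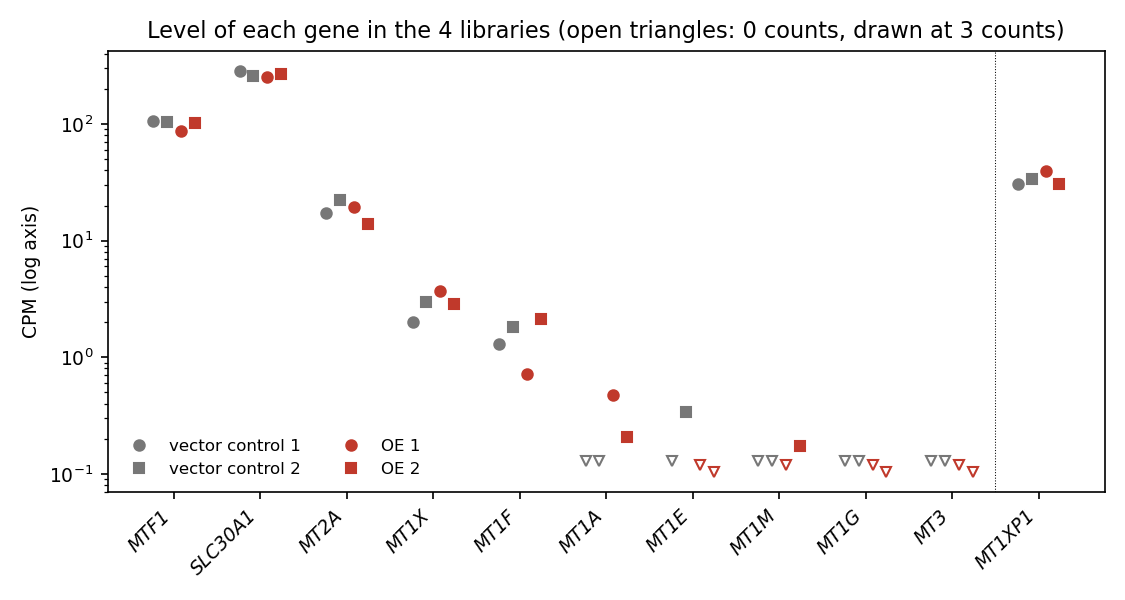
Level of each member, and of the pseudogene MT1XP1 at the right, in the 4 libraries, in CPM on a log axis; circles and squares are replicates 1 and 2, and open triangles mark 0 counts, drawn at the level of 3 counts. On this scale, which is not corrected for transcript length, SLC30A1 (253 to 286 CPM) and MTF1 (87.7 to 107 CPM) stand far above the metallothioneins. MT1G and MT3 have triangles only, and the MT1A symbols are filled in OE only.

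MTF1 (chr1:38275246-38325264, - strand, hg19), the sensor, was at 107 and 104 CPM in the vector control and at 87.7 and 103 CPM in OE. Its counts were 2495, 2449, 2201 and 2969 in that order, all on 1 protein-coding transcript. Both OE values lay below both control values, OE replicate 2 by a narrow margin. Control libraries averaged 106 ± 2.07 CPM and OE libraries 95.2 ± 10.6 CPM (SD, n = 2 each). The log2 fold change was -0.15 (SE 0.111, 95% interval -0.47 to 0.17, edgeR adjusted p = 0.508), so the difference did not exceed the spread between libraries.

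SLC30A1 (chr1:211744910-211752503, - strand, hg19), which exports zinc across the plasma membrane and is itself an MTF1 target, was at 286 and 259 CPM in the vector control and at 253 and 266 CPM in OE. The groups overlapped, with OE replicate 2 between the controls. The means were 272 ± 19.2 and 259 ± 9.55 CPM (SD, n = 2 each). The log2 fold change was -0.07 (SE 0.0804, edgeR adjusted p = 0.683), and its 95% interval of -0.30 to 0.16 is the narrowest among the 5 tested members.

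MT2A, the form expressed in most human tissues, was at 17.3 and 22.3 CPM in the vector control and at 19.4 and 13.8 CPM in OE, from 399 to 525 counts per library. The highest value was a control and the lowest an OE library, and the other two lay between them. The log2 fold change was -0.26 (SE 0.246, 95% interval -0.96 to 0.44, edgeR adjusted p = 0.612). Leaving out 1 library at a time gave -0.52 to -0.03.

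MT1X, an inducible isoform, had 47 and 70 counts in controls, against 92 and 83 in OE. In CPM these were 2.02 and 2.98 against 3.67 and 2.87, so vector control replicate 2 lay above OE replicate 2. The log2 fold change was 0.38 (SE 0.298, 95% interval -0.46 to 1.23, edgeR adjusted p = 0.528). MT1X was the only one of the 5 tested members with a value above 0, and it was above 0 in each of the 14 alternative settings.

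MT1F (chr16:56691643-56694610, + strand, hg19), another inducible isoform, had 30 and 43 counts in controls, against 18 and 62 in OE. Its OE libraries held both the lowest and the highest value, 0.717 and 2.14 CPM, around 1.29 and 1.83 CPM in the controls. The log2 fold change was -0.11 (SE 0.625, 95% interval -1.9 to 1.67, edgeR adjusted p = 0.94). Its sign depended on single libraries, being 0.15 without vector control replicate 2 and 0.46 without OE replicate 1.

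**Figure D2:**
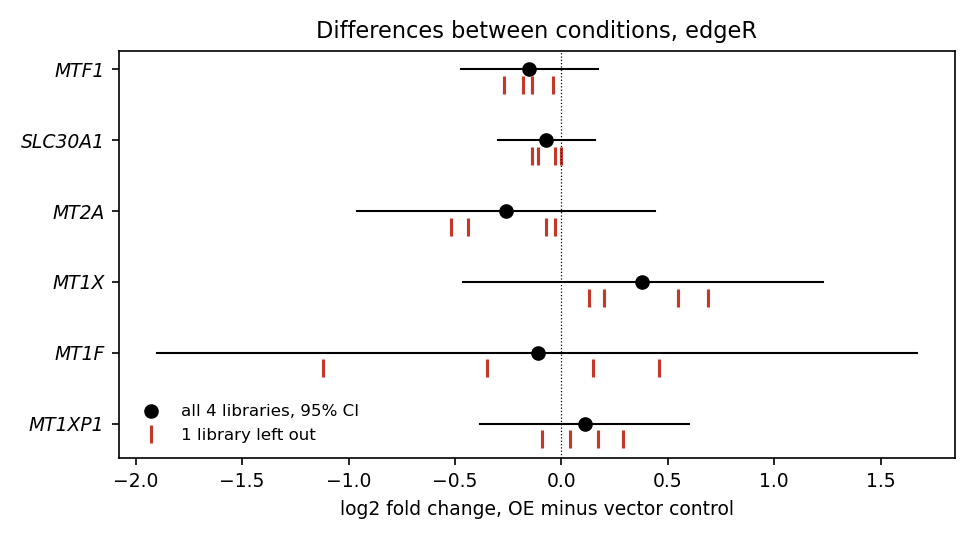
Log2 fold change (OE minus vector control) of the 5 tested members and of MT1XP1; black points with lines are the edgeR estimates from all 4 libraries with 95% intervals, and red ticks the estimates with 1 library left out. All 6 lines cross 0, and the widest belongs to MT1F (-1.9 to 1.67).

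The remaining metallothioneins had few or no listed counts. A count of 0 allows up to 3 counts, or 0.104 to 0.129 CPM in these libraries, and such limits cover counting error only. SLC39A7, HSPA1A and HSPA1B, which most cell types express, were also listed at 0 in all 4 libraries, so a 0 in this table does not show that the RNA was absent. MT1A (chr16:56672578-56673999, + strand, hg19) had 0 counts in both controls and 12 and 6 counts in OE (0.478 and 0.207 CPM). Taking 3 counts per control library as the upper limit of the controls, its OE mean was 2.67 times that limit, and OE replicate 2 alone 1.62 times. These ratios leave out the counting error of the OE counts, so they are not lower bounds on a fold change. MT1A did not enter the main test, and no p is given for it, since a looser filter would keep it through its OE counts alone. All 18 of its counts were on its spliced coding transcript, and whether reads of similar genes were counted there was not tested. MT1E had 8 counts in vector control replicate 2 and 0 elsewhere, and MT1M had 5 counts in OE replicate 2 and 0 elsewhere. MT1G and the neuronal form MT3 had 0 counts in every library.

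Other metallothionein genes outside the members were as scarce. MT1HL1, an intronless copy on chromosome 1, had 8 and 3 counts in controls, against 3 and 11 in OE. MT1JP, a transcribed pseudogene of the cluster, had 2 counts in vector control replicate 1 and 0 elsewhere. MT1B, MT1H, MT1L, MT1DP and MT4 had 0 counts in all 4 libraries.

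Nearly all metallothionein counts were listed on transcripts that keep their introns. For MT2A, 1802 of 1813 counts (99.4%, Wilson 95% interval 98.9% to 99.7%) were on a single-exon transcript of 903 nt annotated as a retained intron, and 7 were on its coding transcripts. The shares were 291 of 292 counts for MT1X (99.7%, 98.1% to 99.9%, on 1727 nt) and 151 of 153 for MT1F (98.7%, 95.4% to 99.6%, on 1573 nt). The spliced coding transcripts of MT1X and MT1F held 1 and 2 counts. Thus the levels given above for these 3 genes are levels of the unspliced transcripts as the authors' counting assigned them. In the 7243 genes with both kinds of transcript and at least 100 counts, the median share on retained introns was 0.187%, 848 genes (11.7%) had more than 50% there and 204 (2.82%) more than 99%.

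Short coding transcripts held few counts across the table. Of 2508 coding transcripts of up to 450 nt, which is the length class of most spliced metallothionein RNAs, 8.49% had at least 10 counts. This share was 13.3% above that length and up to 1000 nt, 31.1% above 1000 and up to 4000 nt, and 52.3% above 4000 nt. The part of transcript length in the placement of the metallothionein counts was not tested.

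The pseudogene MT1XP1 held more counts than all 8 metallothionein members together. It is a single exon of 186 nt and had 717 and 795 counts in controls, against 990 and 876 in OE, or 30.8, 33.8, 39.5 and 30.3 CPM. OE replicate 1 was the highest and OE replicate 2 the lowest, so the groups overlapped. The log2 fold change was 0.11 (SE 0.172, 95% interval -0.38 to 0.6, edgeR adjusted p = 0.767), and without OE replicate 1 it was -0.09. MT1XP1 had 15.3 and 11.4 times the counts of MT1X in the vector control and 10.8 and 10.6 times in OE. Given the 7 differing bases shown above, reads of spliced MT1X RNA and of MT1XP1 may have been exchanged, which was not tested. In all, 11 genes outside the members matched a member's coding sequence at 90% identity or more over at least 150 nt, and 2 of them (MT1XP1 and MT1HL1) had at least 10 counts. Processed pseudogenes as a class held 10.5% of all counts, with 10.4% to 10.6% in each library.

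**Figure D3:**
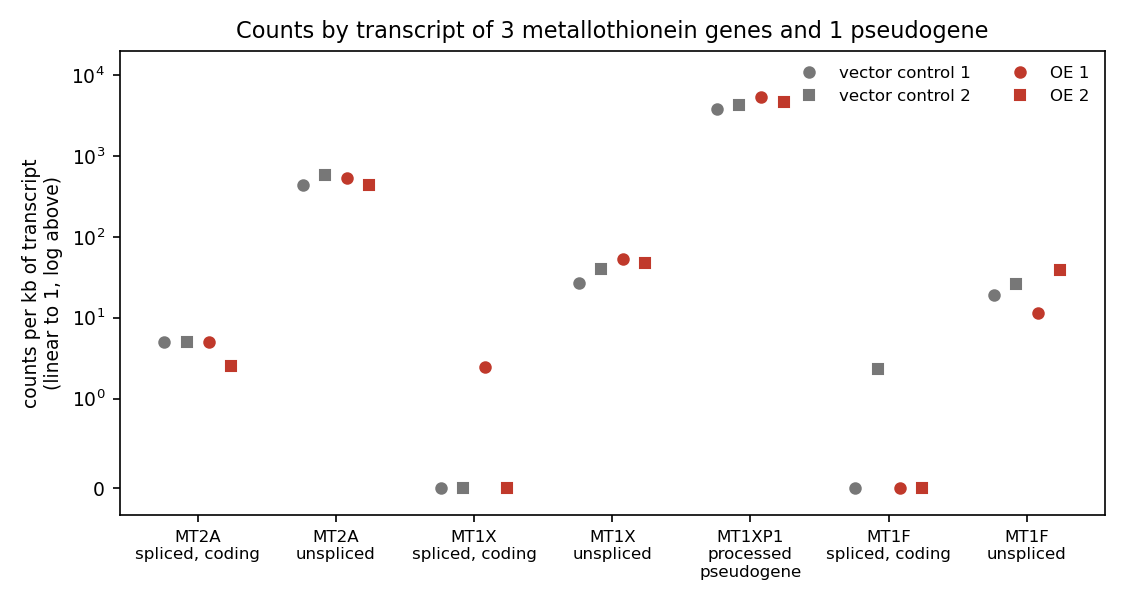
Counts per kb of transcript in the 4 libraries for the spliced coding and the unspliced transcripts of MT2A, MT1X and MT1F and for MT1XP1, on an axis that is linear up to 1 and logarithmic above. The MT1XP1 symbols lie highest, the unspliced transcripts lie above the spliced ones in every gene and library, and most spliced MT1X and MT1F symbols are at 0.

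Per length, the order of levels was the pseudogene first. MT1XP1 averaged 181 CPM per kb over the 4 libraries, and SLC30A1 followed at 45.1 CPM per kb. MT2A was at 15.2 to 24.6 CPM per kb and MTF1 at 11.1 to 13.5 CPM per kb, without overlap between these neighbours. MT1X (1.17 to 2.1 CPM per kb) and MT1F (0.456 to 1.36 CPM per kb) overlapped, so their order is not separated by the spread over libraries. Lengths are those of the transcript that held the counts, without correction for the length of the reads or fragments. MT1XP1 has only 186 nt, so its value per kb is not comparable with those of the longer transcripts.

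Added together, the 8 metallothionein members were at 20.6 and 27.5 CPM in the vector control and at 24.2 and 19.2 CPM in OE. Both conditions overlapped, and the ratio of the OE mean to the control mean was 0.903. With all 20 metallothionein genes and pseudogenes in the table the sums were 51.9 and 61.5 CPM against 63.8 and 50 CPM, a ratio of 1. These sums are descriptions without a test.

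The members were next set beside genes of zinc, copper and stress handling, in 6 lists with 48 tested genes. Of these 48, 9 were higher and 9 lower in OE at an unadjusted p under 0.05, against 10.1% and 10.7% of all genes tested, and 0 passed the thresholds of the main test. With DESeq2 at the same thresholds, HMOX1, SLC7A11, TSC22D3 and BBS2 of the 48 were called higher, and 3 (STEAP2, ATP7B and HSPA8) lower. Of the 24795 genes it tested, 3.42% were called higher and 3.52% lower. A call of SLC30A10 is left out here, since that gene is not among the 48 and entered that fit through its OE counts alone.

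Among the other zinc exporters of the SLC30 family, 6 of 9 were tested, with a median log2 fold change of -0.09. SLC30A4, which loads zinc into vesicles, was at 30.8 and 32.4 CPM in the vector control and at 25.7 and 26.4 CPM in OE (log2 fold change -0.28, SE 0.0965, edgeR adjusted p = 0.239). SLC30A5, SLC30A9 and SLC30A3 had log2 fold changes of -0.16, 0.09 and 0.13. SLC30A10, a manganese exporter of the same family, was below the filter with 0 counts in both controls and 9 and 21 in OE, so edgeR did not test it. DESeq2 called SLC30A10 (adjusted p = 0.00955), but the gene entered that fit through its OE counts alone, and the call is given only for completeness. SLC30A6 had 14 counts in OE replicate 1 and 5830 in OE replicate 2, a 362-fold gap in CPM within 1 condition.

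Among the SLC39 zinc importers, 10 of 14 were tested, with a median of -0.13. SLC39A14, which brings zinc, iron and manganese into the cell, was at 524 and 516 CPM in the vector control and at 629 and 642 CPM in OE, without overlap. Its log2 fold change of 0.29 (SE 0.0452, edgeR adjusted p = 0.0933) lay below the threshold of size, although DESeq2 gave an adjusted p of 3.24e-11. SLC39A8, the close paralog of SLC39A14, was on the other side, at 47.1 and 43.5 against 37.7 and 33.9 CPM (log2 fold change -0.34, edgeR adjusted p = 0.219). SLC39A3 and SLC39A9 had log2 fold changes of 0.25 and 1.18, the latter resting on OE replicate 2 (223 CPM against 61.2 to 71.4 CPM in the other libraries). SLC39A1 had 13440 counts in OE replicate 1 and 401 in OE replicate 2.

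Copper handling showed 8 of 9 tested genes with both OE libraries below both controls, against 27.6% of all genes, and a median of -0.45. STEAP2, a metalloreductase that reduces iron and copper, was at 250 and 224 CPM in the vector control and at 106 and 125 CPM in OE. Its log2 fold change was -1.04 (SE 0.12, edgeR adjusted p = 0.0707, DESeq2 adjusted p = 3.04e-13). ATP7B, the copper-exporting ATPase, was at 32.6 and 32.8 against 19.6 and 22.9 CPM (-0.62, edgeR adjusted p = 0.119). ATOX1, the chaperone that hands copper to it, had a log2 fold change of -0.89 (edgeR adjusted p = 0.187) and STEAP3 one of -0.35 (edgeR adjusted p = 0.186). SLC31A1, the copper importer, differed 69.6-fold between the OE libraries.

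Of 10 tested oxidant and heat stress genes, most of which heavy metals induce, 3 were higher and 2 lower at an unadjusted p under 0.05, against 10.1% and 10.7% of all genes, with a median of -0.23. SLC7A11, the cystine importer that feeds glutathione synthesis, had 4080 and 3808 counts in controls, against 7770 and 9340 in OE (log2 fold change 0.91, SE 0.0733, edgeR adjusted p = 0.0521). HMOX1, which breaks down haem, was at 41.8 and 58.8 CPM against 121 and 118 CPM (1.25, SE 0.198, edgeR adjusted p = 0.095). TXNRD1, a thioredoxin reductase, had a log2 fold change of 0.41 (edgeR adjusted p = 0.0892). HSPA8, a constitutive heat shock chaperone, was on the other side at 201 and 179 CPM against 94.8 and 67 CPM (-1.23, SE 0.206, edgeR adjusted p = 0.1). The list thus held well separated genes in both directions, none of which passed the main test.

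Of 7 tested glucocorticoid-responsive genes, 2 were higher and 1 lower at an unadjusted p under 0.05, against 10.1% and 10.7% of all genes. TSC22D3, a standard glucocorticoid target, was at 36.5 and 48.4 CPM in the vector control and at 85.3 and 74.7 CPM in OE (log2 fold change 0.91, SE 0.184, edgeR adjusted p = 0.122). DUSP1, a phosphatase gene, had a log2 fold change of 0.47 (edgeR adjusted p = 0.11) and KLF9 one of 0.20 (edgeR adjusted p = 0.3). NR3C1, the receptor itself, had one of -0.33 (edgeR adjusted p = 0.174). Of the 7, 5 had a log2 fold change above 0 and 2 below (median 0.23), so the listed targets were not all higher.

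**Figure D4:**
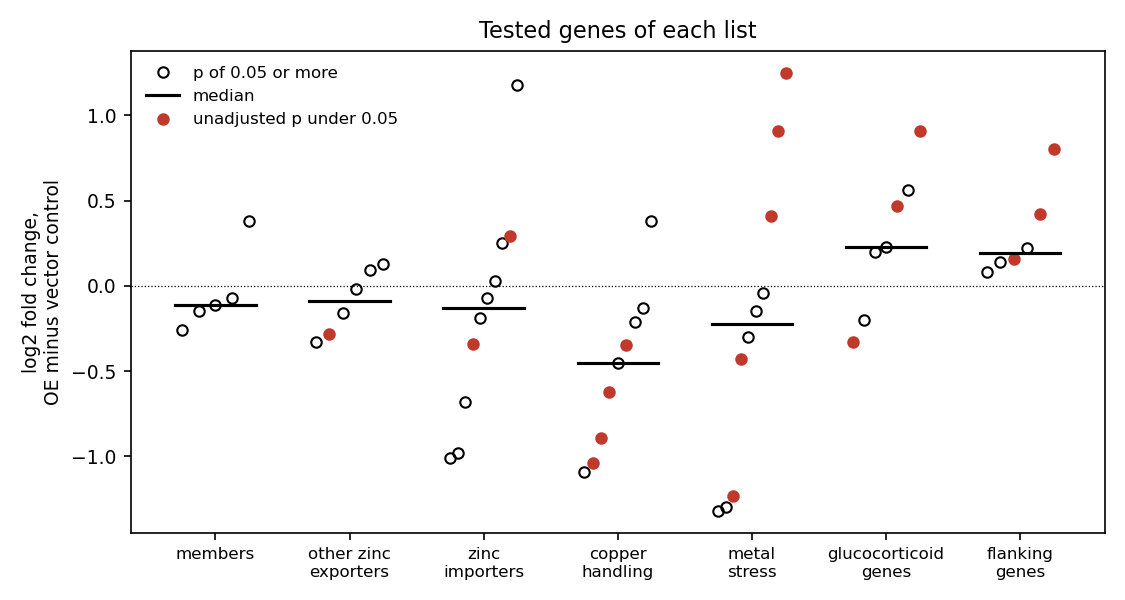
Log2 fold changes (OE minus vector control) of the tested genes in the members and the 6 other lists; each circle is a gene, filled red where the unadjusted edgeR p was under 0.05, and bars are medians. The members hold open circles only, between -0.26 and 0.38, and the copper handling list has the lowest median (-0.45).

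The metallothionein cluster lies on chromosome 16. All 6 tested flanking genes had a log2 fold change above 0 (median 0.19), against 50.7% of all genes, and 3 had an unadjusted p under 0.05, against 10.1% of all genes in that direction. BBS2, a cilium gene next to the cluster, had 364 and 413 counts in controls, against 747 and 808 in OE (log2 fold change 0.80, SE 0.121, edgeR adjusted p = 0.0921). OGFOD1 and NUDT21 had log2 fold changes of 0.42 and 0.16 (edgeR adjusted p = 0.149 and 0.237). NUP93, the nearest tested neighbour on the other side, and HERPUD1 had log2 fold changes of 0.08 and 0.14, both with overlapping libraries. Within the cluster MT2A was on the lower side and MT1X on the higher, both with overlapping libraries.

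**Figure D5:**
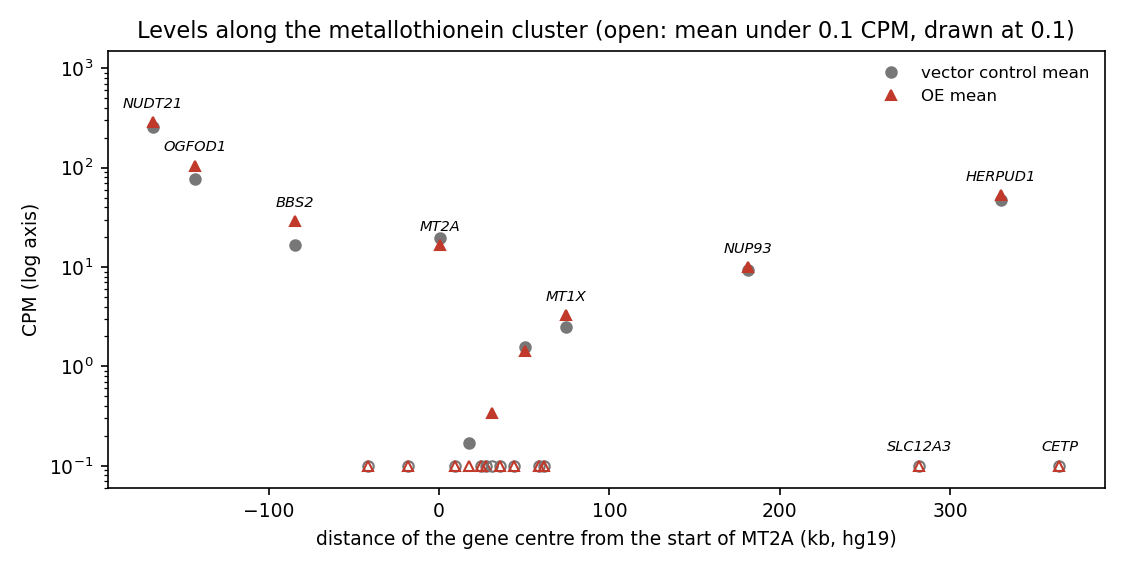
Mean CPM per condition (log axis) of genes along the metallothionein cluster, by the distance of the gene's centre from the start of MT2A in kb; grey circles are vector control, red triangles OE, and open symbols are means under 0.1 CPM drawn at 0.1. Most genes between MT4 and MT1X are open, while MT2A (19.8 and 16.6 CPM) and BBS2 (16.6 and 28.9 CPM) stand above them.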

How the data were processed

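RNA-seq of SK-N-SH cells (2 vector control and 2 OE libraries) was read from a table in which the authors deposited raw whole-number counts for each transcript. Per the study's methods and the submitters' processing notes, reads were checked with FastQC, trimmed with Trimmomatic and mapped to hg19 with Bowtie2 2.0.4. The notes also name Picard 2.21.6, StringTie 2.1.6 and DESeq2. The counting rule, annotation release and use of strand are not given in the sources used here, so the split of reads between near-identical copies, or between spliced and unspliced transcripts, depends on an unstated rule.

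Counts were summed per gene. Genes kept by filterByExpr (20528) were TMM-normalized and tested with edgeR 4.0.16 in R 4.3.3 (quasi-likelihood test, two-sided, Benjamini-Hochberg adjustment over all genes tested, no covariates). Genes were called at the study's thresholds (adjusted p below 0.01, log2 fold change beyond 0.5 in either direction). DESeq2 1.42.0, limma-voom (limma 3.58.1), RLE and upper-quartile scaling, other filters, a replicate block, leaving out mitochondrial genes and leaving out each library were alternatives. The edgeR step was tested on simulated counts. The members, lists and tests were chosen with earlier results of these data known. Named genes were the members, up to 4 genes per list with the smallest unadjusted p, and the other metallothionein genes; HERPUD1, HSPA1A, HSPA1B, NUP93, SLC30A6, SLC30A10, SLC31A1, SLC39A1, SLC39A7, MT1XP1 and the cell state markers in the text were named after their values were seen. Results of 2 single genes of the lists are not reported here. Shares have Wilson 95% intervals from scipy 1.17.1, which cover counting error only (no molecular identifiers are named). Transcript types, lengths and coding sequences came from GENCODE lifted to GRCh37, whose transcript versions differ from the table's for some members, and promoters from RefSeq (GRCh38.p14). Copies were searched with BLAST 2.17.0, and figures drawn with matplotlib 3.10.9.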

Additional observations from a re-analysis of the deposited data

How the results depend on the processing

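The 5 tested members were refitted under 14 alternatives each, and 67 of the 70 values kept their direction. All 70 stayed short of the thresholds, with adjusted p from 0.35 to 0.997. An exception was SLC30A1, at 0 without vector control replicate 1. The others were MT1F, at 0.15 without vector control replicate 2 and 0.46 without OE replicate 1 (leave-one-out range -1.12 to 0.46). Leaving out 1 library gave -0.27 to -0.04 for MTF1, -0.14 to 0 for SLC30A1, -0.52 to -0.03 for MT2A, 0.13 to 0.69 for MT1X and -0.09 to 0.29 for MT1XP1. The number of called genes (0 with edgeR) was 1800 with DESeq2 on the same genes, 1722 with DESeq2 on genes with at least 10 counts, 9 with edgeR on genes with at least 1 count and 122 at an adjusted p under 0.05. It was 0 in the 10 other alternatives. The cause of the gap between edgeR and DESeq2 was not tested. The differences between replicates 1 and 2 were not correlated between the conditions (r = -0.0152 over 20528 genes). This value cannot tell whether libraries of the same number were prepared as pairs. With a replicate block, 0 genes were called, the members were at -0.27 (MT2A), 0.4 (MT1X), -0.26 (MT1F), -0.16 (MTF1) and -0.07 (SLC30A1), and 5 rather than 9 listed genes were lower at an unadjusted p under 0.05. The ratio of summed metallothionein levels (0.903) moved by less than the spread between libraries in the 5 alternatives run for it, but its side of 1 changed, to 1.05 without vector control replicate 2 and 1.01 without OE replicate 2 (leave-one-out range 0.79 to 1.05). MT1X and MT1F rest on 18 to 92 counts per library, and differences within their 95% intervals were not detectable. For MT1A, the ratio to the control limit without OE replicate 1 was chosen after seeing the data.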
